A study of Danio rerio with 11 samples.

Results

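The proteasome subunit genes of zebrafish larvae were described here across 11 RNA-seq libraries. Members were all genes whose Ensembl zebrafish symbol begins with psma, psmb, psmc, psmd, psme or psmg followed by a number, with case ignored. The gene table holds 58 such genes, of which 55 were in the files among 27625 genes in all. The other 3 (psmb11b and both entries named PSMD2) were not analysed here. Many entries carry the human symbol, so paralogues that share one are given with their Ensembl gene ID. PSMC3IP and PSME3IP1 matched the rule by name, although they encode partners of proteasome proteins and not subunits.

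The larvae were wild-type AB offspring collected 120 h after fertilization, and RNA came from larvae taken whole. Their parents had been kept for 30 days with both dibutyl phthalate (DBP) and diisobutyl phthalate (DiBP), with DBP alone, with DiBP alone or with neither agent. The 4 groups are called combined, DBP, DiBP and control larvae, with 3 libraries for each exposed group and 2 for the controls, and any further control was not analysed here. DBP and DiBP are isomers that differ in their alcohol side chains, which are straight butyl groups in DBP and branched isobutyl groups in DiBP. Only the parents were exposed, and the sources used here give no doses. The labels do not say how many larvae were pooled for a library, or whether libraries stem from separate clutches or tanks, so a p-value measures only how these samples vary, which may be technical.

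The proteasome is the protease that degrades ubiquitin-tagged proteins in the cytosol and nucleus. Its barrel-shaped core is built from outer rings of alpha subunits, which gate the entrance, and inner rings of beta subunits, of which PSMB5, PSMB6 and PSMB7 carry the cutting sites. A regulatory particle caps the core: a ring of ATPases (PSMC genes) unfolds the substrate, and non-ATPase subunits (PSMD genes) hold it and remove its ubiquitin. In lymphoid and interferon-exposed cells the cutting subunits are exchanged for immunoproteasome copies that favour peptides for antigen presentation, and the PSME1 and PSME2 proteins form an alternative cap. In mammals, constitutive subunit genes are transcribed together under the factor NFE2L1, and whole-body larvae carry them in all tissues.

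By role, the 55 members comprised 10 alpha ring genes, 7 beta ring genes, 7 regulatory ATPase genes and 12 regulatory non-ATPase genes, together 36 constitutive subunit genes. A further 8 belonged to the immunoproteasome and its thymic and fish-specific relatives, 3 encoded other activators, 6 encoded assembly chaperones and 2 were the interacting proteins. After the low-value filter 51 members were among the 19465 genes tested, and the 4 left out were PSMB8, PSMB9, PSMB11 and psmb13a, all of the immunoproteasome group. The fish-specific psmb12 passed the filter only through 2 DiBP libraries in which it is high, so its levels are given as a description with no test. Levels are the deposited FPKM divided by a scaling factor for each library (scaled FPKM), a unit that is per gene length. Differences are on the log2(scaled FPKM + 0.1) scale with their standard errors, on which changes of weakly expressed genes come out too small. A gene is said to rise or fall where its limma p, adjusted over all 19465 genes, was under 0.05.

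Constitutive genes were the most abundant by mean scaled FPKM over all libraries. In the beta ring levels ran from 30.9 for PSMB2 to 111.9 for PSMB4, and in the alpha ring from 7.03 for psma6l to 88.6 for PSMA4. The ATPase genes ran from 14.5 for PSMC1 to 47.7 for psmc1b. The non-ATPase genes ran from 1.23 for PSMD7, which encodes the lid partner of the deubiquitinating subunit, to 73.0 for PSMD3, a structural lid subunit. Assembly chaperone genes lay lower, between 2.87 for PSMD10 and 24.2 for PSMG3, and the 3 other activator genes between 8.03 for PSME3 and 16.2 for PSME4 (ENSDARG00000087911). The highest immunoproteasome gene, PSME1, averaged 3.56.

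Recovered totals ran from 13396589 to 15381114 reads per library, and 2 libraries stood apart. Control library 1 lay far from the rest on the first principal component of all genes, at -71.2 against -21.9 for control library 2. The summed scaled FPKM of lens marker genes was 8245 in control library 1 and 668.6 to 1427 in the 10 others, while that of 10 fast muscle genes was 1856 in control library 1 and 6240 to 11640 elsewhere. Combined library 3 lay near its group on the first principal component, at -29.4 against -25.6 and -24.1, but differed in the summed marker levels. Its fast muscle sum was 9057 against 6488 and 6240 in the other combined libraries, and its lens sum 668.6 against 1122 and 1064. Not all muscle markers followed: myhz1.1 was 803 against 873 and 858, and myhz2 was 503 against 513 and 490. In larvae taken whole, fewer cells of a type and less RNA per cell cannot be told apart.

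Across libraries, the constitutive genes moved as a block. Their summed scaled FPKM was 1173, 1125 and 1509 in combined larvae, 1572, 1685 and 1602 in DBP larvae, 2258, 2012 and 2202 in DiBP larvae and 827.5 and 1208 in control larvae. The 3 DiBP libraries thus lay above all others and did not overlap with any group, DBP libraries lay above both controls and above every combined library, and combined library 3 lay above both controls while the other combined libraries fell between them. The median deviation of the 36 genes from their mean over groups was -0.25, -0.33 and 0.08 in combined larvae, 0.10, 0.18 and 0.14 in DBP larvae, 0.63, 0.46 and 0.60 in DiBP larvae and -0.77 and -0.26 in control larvae (log2). Over all genes tested the same median stayed between -0.01 and 0.02 in every library. The scaling factors were derived from these same genes and bring their median near 0, here and in the comparisons below, so it is not an independent reference.

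**Figure D1:**
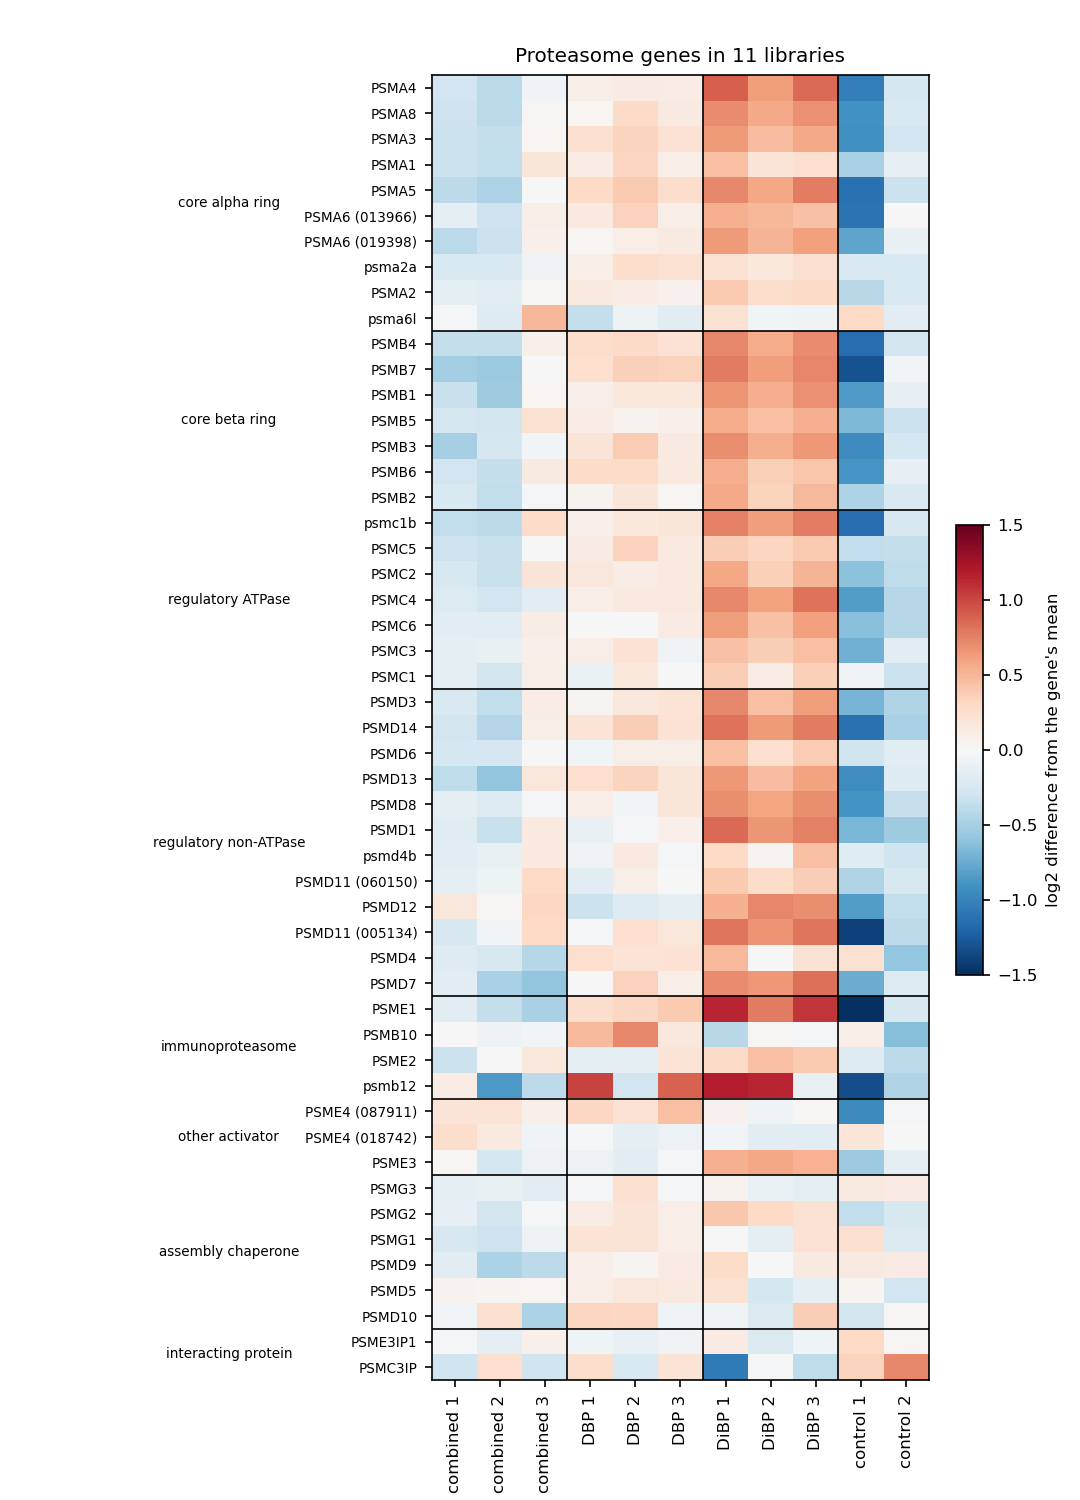
Rows are the 51 tested proteasome genes ordered by role and columns the 11 libraries, and colour gives the log2 difference of scaled FPKM from the mean of the 4 group means (red above, blue below). The 3 DiBP columns are red across most constitutive rows, where the median difference was 0.46 to 0.63, and the column of control library 1 is blue, at a median of -0.77.

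All 3 DiBP libraries exceeded the 8 others in 32 of the 51 tested members (62.7%) and in 28 of the 36 constitutive genes (77.8%), against 9.28% of all genes tested. Group means fell in the order DiBP, DBP, combined, control in 37 of 51 members (72.5%), against 9.21% of all genes. Among the 36 constitutive genes 32 had this order (88.9%). Control library 1 was the lowest of the 11 libraries in 36 members (70.6%), against 21.8% of all genes. Of the constitutive genes 31 had it lowest (86.1%). The member counts of 37 and 36 include psmb12, which passed the filter only through DiBP libraries in which it is high and is a description only. The summed level of the fast muscle markers followed a like order. It was 6240 to 9057 in combined, 9033 to 10510 in DBP and 10020 to 11640 in DiBP larvae. In control larvae it was 1856 and 7533. Single markers did not all follow this order. ACTA1 (ENSDARG00000055618) was higher in every combined library than in every DBP library. TNNT3 (ENSDARG00000030270) was lower in every DiBP library than in every DBP library. None of the 10 markers was at 0 in every library. Markers of other tissues also differed between groups. The summed level of 9 skin markers was 2769 to 3442 in combined, 4450 to 4940 in DBP and 4335 to 4638 in DiBP larvae and 1094 and 2498 in control larvae. That of 7 intestine markers was 167.9 to 212.3 in combined, 402.3 to 478.5 in DBP and 216.0 to 239.5 in DiBP larvae and 72.8 and 139.9 in control larvae, highest in DBP larvae. So were the 8 exocrine pancreas markers, at 654.0 to 711.6 in combined, 1321 to 1755 in DBP and 891.3 to 926.7 in DiBP larvae and 368.1 and 1002 in control larvae. The summed level of 11 markers of dividing cells ran the other way, at 238.0 to 328.7 in combined, 160.6 to 166.7 in DBP and 158.0 to 166.2 in DiBP larvae and 274.5 and 377.9 in control larvae. MCM7 was the largest part of this sum, and mki67, TOP2A and CDK1 were also lower in DBP and DiBP than in control larvae. Other markers of the list did not follow it. MCM2 was 1.98 to 2.24 in DiBP larvae against 1.17 and 1.26 in control larvae, and PCNA was lowest in combined larvae, at 21.2 to 23.4. Single markers of the skin and intestine lists also departed from their sums. VIL1 of the intestine list was 3.77 to 4.77 in DBP and 5.02 to 5.58 in DiBP larvae. The skin marker cyt1l was 173 to 242 in combined and 146 to 180 in DBP larvae. No marker of these lists was at 0 in every library, and the part of these tissues in the proteasome differences was not tested.

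In the alpha ring, PSMA4 (ENSDARG00000045928) had scaled FPKM of 64.9, 59.95 and 75.7 in combined larvae, 84.5, 86.2 and 85.5 in DBP larvae, 148, 122 and 142 in DiBP larvae and 38.5 and 66.2 in control larvae. PSMA5 (ENSDARG00000003526) had 35.7, 34.0 and 46.8 in combined larvae, 57.8, 61.5 and 56.2 in DBP larvae, 77.4, 69.9 and 79.8 in DiBP larvae and 21.4 and 37.3 in control larvae. PSMA3 (ENSDARG00000086618) had 44.6, 43.4 and 56.9 in combined larvae, 65.7, 70.3 and 64.6 in DBP larvae, 86.8, 76.9 and 82.8 in DiBP larvae and 29.5 and 45.8 in control larvae. In all 3 genes the DiBP libraries were highest, the DBP libraries came next without overlap, and combined library 3 exceeded both controls while the combined and control groups overlapped. PSMA8 (ENSDARG00000010965), for which the RefSeq table lists psma7 as a synonym, had 62.5, 58.9 and 78.5 in combined larvae, 79.3, 94.6 and 85.1 in DBP larvae, 127, 115 and 125 in DiBP larvae and 41.5 and 66.1 in control larvae, in the same order. The paralogue psma2a (ENSDARG00000040121) had 17.3, 17.3 and 19.6 in combined larvae, 21.5, 24.4 and 23.8 in DBP larvae, 23.7, 22.6 and 24.1 in DiBP larvae and 17.3 and 17.3 in control larvae, so that its DBP and DiBP libraries overlapped and lay together above the others. An exception was psma6l (ENSDARG00000043899), a second relative of PSMA6, at 6.79, 6.07 and 9.86 in combined larvae, 5.39, 6.61 and 6.17 in DBP larvae, 8.17, 6.75 and 6.68 in DiBP larvae and 8.57 and 6.23 in control larvae, where each exposed group overlapped with the controls. PSMA1, PSMA2 and both genes named PSMA6 (ENSDARG00000013966 and ENSDARG00000019398) had their highest group mean in DiBP larvae.

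The cutting subunits of the beta ring followed the same order. PSMB5 (ENSDARG00000075445), which carries the chymotrypsin-like site, had 42.1, 41.3 and 58.9 in combined larvae, 54.0, 52.0 and 52.9 in DBP larvae, 73.5, 68.4 and 72.3 in DiBP larvae and 31.3 and 40.0 in control larvae. PSMB6 (ENSDARG00000002240), which carries the caspase-like site, had 39.0, 37.3 and 52.3 in combined larvae, 58.0, 57.9 and 53.0 in DBP larvae, 70.0, 61.3 and 63.7 in DiBP larvae and 25.8 and 44.0 in control larvae. PSMB7 (ENSDARG00000037962), which carries the trypsin-like site, had 64.1, 62.2 and 91.2 in combined larvae, 109, 117 and 116 in DBP larvae, 156, 141 and 151 in DiBP larvae and 36.8 and 88.5 in control larvae. For each of the 3 genes every DiBP library lay above every DBP library and every DBP library above both controls. The non-catalytic ring genes PSMB1, PSMB2, PSMB3 and PSMB4 also had their highest group mean in DiBP larvae and their lowest in control larvae. PSMB4 (ENSDARG00000054696), the most abundant member, averaged 87.8 ± 16.1 in combined, 120.2 ± 3.15 in DBP and 159 ± 10.04 in DiBP larvae (SD, n = 3 each) and 64.6 ± 26.6 in control larvae (n = 2).

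Among the ATPases, PSMC4 (ENSDARG00000027099) had 33.6, 31.6 and 34.8 in combined larvae, 41.6, 42.7 and 43.0 in DBP larvae, 64.0, 58.7 and 68.0 in DiBP larvae and 21.6 and 28.8 in control larvae. Its 4 groups did not overlap, and the order was DiBP, DBP, combined, control from the top. PSMC6 (ENSDARG00000037038), a neighbouring subunit of the ATPase ring, had 32.7, 32.6 and 39.6 in combined larvae, 37.0, 36.7 and 39.8 in DBP larvae, 56.9, 49.7 and 56.0 in DiBP larvae and 23.6 and 27.3 in control larvae. PSMC5 (ENSDARG00000015315) had 35.4, 34.9 and 44.1 in combined larvae, 47.9, 56.0 and 48.7 in DBP larvae, 56.9, 54.9 and 57.7 in DiBP larvae and 34.0 and 34.2 in control larvae. DBP and combined libraries overlapped for PSMC6, and DBP and DiBP libraries overlapped for PSMC5, while both genes were lowest in the controls. PSMC2, PSMC3 and psmc1b likewise had their lowest group mean in control larvae and their highest in DiBP larvae.

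The non-ATPase genes include the scaffold of the base, the lid and the ubiquitin receptors. PSMD1 (ENSDARG00000003189), the large scaffold of the base, had 22.5, 20.2 and 28.1 in combined larvae, 23.4, 24.9 and 26.8 in DBP larvae, 45.7, 40.2 and 42.9 in DiBP larvae and 15.7 and 17.5 in control larvae. PSMD14 (ENSDARG00000063100), the metalloprotease that cuts ubiquitin chains from the substrate, had 47.6, 42.6 and 61.4 in combined larvae, 66.5, 74.8 and 67.3 in DBP larvae, 102, 90.0 and 99.6 in DiBP larvae and 26.6 and 41.4 in control larvae. PSMD8 (ENSDARG00000020454), a lid subunit, had 26.6, 25.5 and 28.8 in combined larvae, 31.5, 28.5 and 33.4 in DBP larvae, 47.8, 44.4 and 47.5 in DiBP larvae and 15.7 and 23.0 in control larvae. In these 3 genes every exposed library lay above both controls. PSMD3 (ENSDARG00000018124) had 57.4, 52.4 and 72.5 in combined larvae, 69.1, 75.6 and 77.9 in DBP larvae, 111, 92.4 and 104 in DiBP larvae and 41.5 and 49.4 in control larvae. PSMD12 (ENSDARG00000052377), also of the lid, had 8.18, 7.37 and 9.004 in combined larvae, 5.81, 6.37 and 6.56 in DBP larvae, 10.5, 12.2 and 11.9 in DiBP larvae and 4.04 and 5.60 in control larvae. For PSMD12 the combined libraries lay above the DBP libraries without overlap, which held for no other member tested. PSMD7 (ENSDARG00000102417) had 0.989, 0.763 and 0.701 in combined larvae, 1.11, 1.44 and 1.203 in DBP larvae, 1.88, 1.80 and 2.04 in DiBP larvae and 0.625 and 0.960 in control larvae, with combined and control libraries overlapping at a low level. PSMD4 (ENSDARG00000101295), a ubiquitin receptor, was low as well, at 2.34, 2.26 and 1.98 in combined larvae, 3.23, 3.12 and 3.15 in DBP larvae, 3.82, 2.68 and 3.18 in DiBP larvae and 3.18 and 1.76 in control larvae. PSMD6, PSMD13, psmd4b and both PSMD11 genes completed the group, each with its highest group mean in DiBP and its lowest in control larvae.

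Assembly chaperones help the rings to form and leave the finished particle. PSMG2 (ENSDARG00000035987), which pairs alpha subunits, had 20.8, 18.6 and 22.3 in combined larvae, 24.5, 25.9 and 24.3 in DBP larvae, 30.0, 27.9 and 26.4 in DiBP larvae and 17.4 and 19.1 in control larvae, and was the chaperone gene whose DiBP libraries all exceeded the rest. PSMG1, its partner, averaged 12.6 ± 1.05 in combined, 16.4 ± 0.693 in DBP, 14.8 ± 1.87 in DiBP and 14.8 ± 3.26 in control larvae (SD, n = 3, 3, 3 and 2). PSMD9 (ENSDARG00000006300), a chaperone of the ATPase ring, had 10.1, 8.16 and 8.64 in combined larvae, 12.0, 11.7 and 12.4 in DBP larvae, 13.8, 11.3 and 12.5 in DiBP larvae and 12.4 and 12.4 in control larvae, with every combined library below all others. PSMG3, PSMD5 and PSMD10 had overlapping DBP and DiBP libraries, and the summed level of the 6 chaperone genes was 68.98 to 73.1 in combined, 83.56 to 91.53 in DBP, 81.17 to 91.33 in DiBP and 76.87 to 80.73 in control larvae. Of the other activators, the nuclear cap gene PSME3 (ENSDARG00000012234) had 7.72, 6.33 and 7.14 in combined larvae, 7.18, 6.84 and 7.50 in DBP larvae, 11.1, 11.4 and 11 in DiBP larvae and 5.17 and 6.89 in control larvae, high in DiBP larvae and overlapping elsewhere. PSME4, whose product caps the core in the nucleus, had 2 genes that differed: ENSDARG00000087911 had 17.5, 17.7 and 16.1 in combined larvae, 19.1, 17.9 and 20.9 in DBP larvae, 16.1, 14.6 and 15.5 in DiBP larvae and 7.86 and 15.1 in control larvae, while ENSDARG00000018742 had 9.98, 9.15 and 7.92 in combined larvae, 8.07, 7.55 and 7.75 in DBP larvae, 8.04, 7.40 and 7.37 in DiBP larvae and 9.42 and 8.23 in control larvae.

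**Figure D2:**
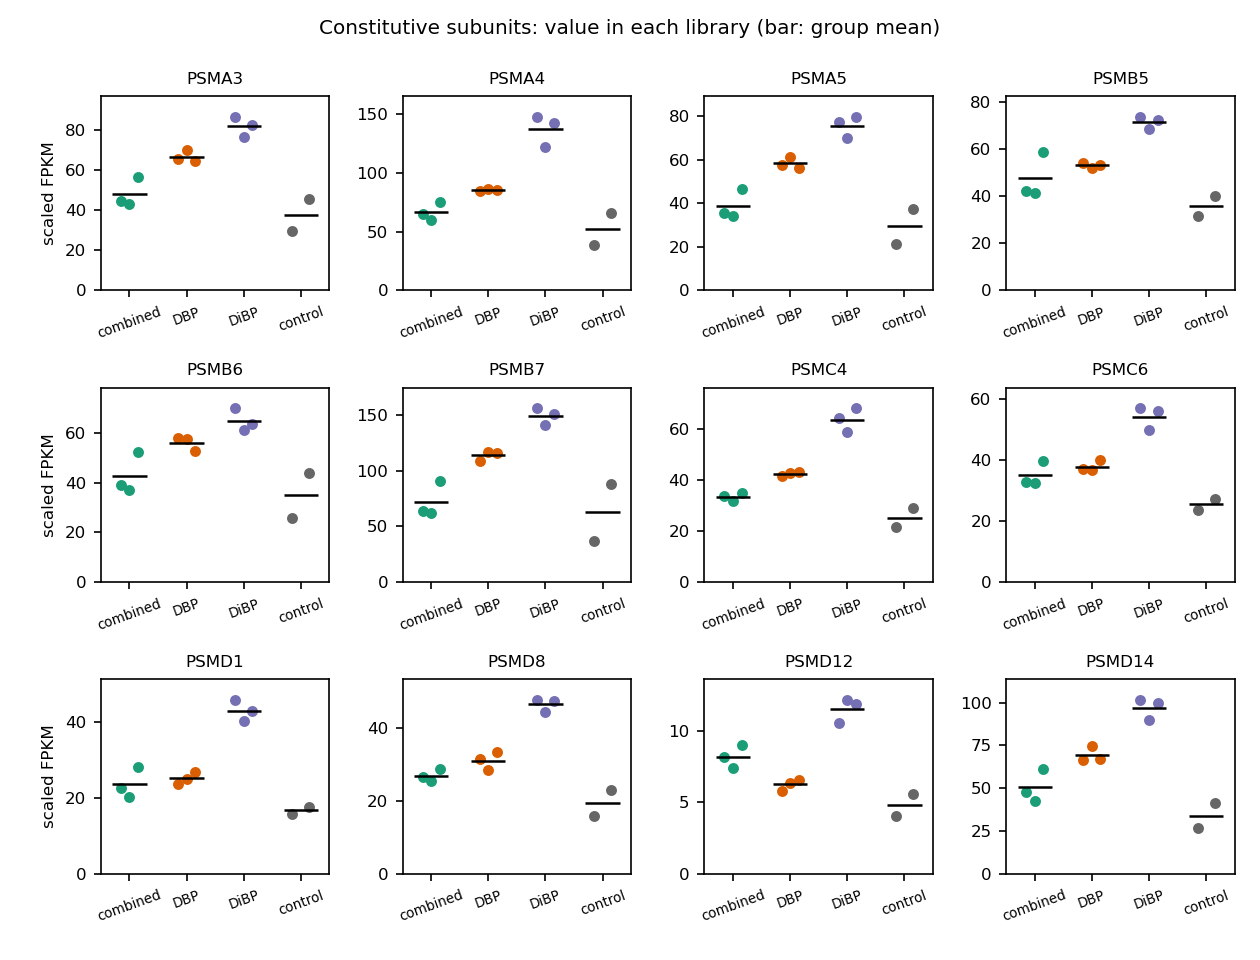
Scaled FPKM in every library for 12 constitutive genes, with groups on the horizontal axis, 1 point per library and a bar at the group mean. In all 12 panels the 3 DiBP libraries lie above the 8 others, as for PSMC4 with 58.7 to 68.0 in DiBP larvae, 41.6 to 43.0 in DBP larvae and 21.6 and 28.8 in control larvae.

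In DiBP larvae the constitutive proteasome genes rose against control. Of 36 constitutive genes 34 rose and 0 fell, with a median change of 1.1 (a median fold of 2.14). Over the 50 tested members other than psmb12, 38 rose and 1 fell, with a median of 0.92, where 15.8% of all genes tested rose, 14.0% fell and the median was 0.02. The count was 9 of 10 in the alpha ring, 7 of 7 in the beta ring, 7 of 7 among ATPases and 11 of 12 among non-ATPases, and the 2 constitutive genes that did not pass were psma6l at -0.03 ± 0.21 (adjusted p = 0.931) and PSMD4 at 0.41 ± 0.23 (adjusted p = 0.194). The smallest p belonged to PSMC4, at 1.34 ± 0.12 (adjusted p = 2.28e-05). PSMD1 rose by 1.36 ± 0.13 (adjusted p = 4.35e-05), PSMC6 by 1.09 ± 0.11 (adjusted p = 7.78e-05) and PSMD8 by 1.29 ± 0.14 (adjusted p = 9.84e-05). The deubiquitinating subunit gene PSMD14 rose by 1.54 ± 0.18 (adjusted p = 0.000137). The largest constitutive change was that of PSMD11 ENSDARG00000005134, a lid gene, at 1.66 ± 0.23 (adjusted p = 0.000449), while its paralogue ENSDARG00000060150 rose by 0.69 ± 0.14 (adjusted p = 0.00301). The cutting subunits rose by 1.39 ± 0.27 (adjusted p = 0.00308) for PSMB7, 1.01 ± 0.15 (adjusted p = 0.000541) for PSMB5 and 0.94 ± 0.19 (adjusted p = 0.00395) for PSMB6. Changes of the other constitutive genes that rose lay between 0.44 (psma2a) and 1.44 (PSMA4).

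Outside the constitutive particle the DiBP change was uneven. PSME3 rose by 0.89 ± 0.14 (adjusted p = 0.000746) and the chaperone gene PSMG2 by 0.62 ± 0.11 (adjusted p = 0.00166), whereas the other 5 chaperone genes did not pass and had changes between -0.20 (PSMG3) and 0.15 (PSMD10). The PSME4 genes had changes of 0.50 ± 0.20 (adjusted p = 0.0739) for ENSDARG00000087911 and -0.21 ± 0.11 (adjusted p = 0.163) for ENSDARG00000018742. The member that fell was PSMC3IP (ENSDARG00000037892), a cofactor of recombination in meiosis, with 0.892, 1.93 and 1.49 in DiBP larvae against 2.52 and 3.33 in control larvae and a change of -1.02 ± 0.32 (adjusted p = 0.0323). With psmb12 counted as well, 39 rose and 1 fell in all libraries. Without control library 1 these counts were 37 higher and 0 lower with a median of 0.72, and without control library 2 they were 38 higher and 1 lower with a median of 1.14. Without both control library 1 and combined library 3, 35 of the 36 constitutive genes rose.

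**Figure D3:**
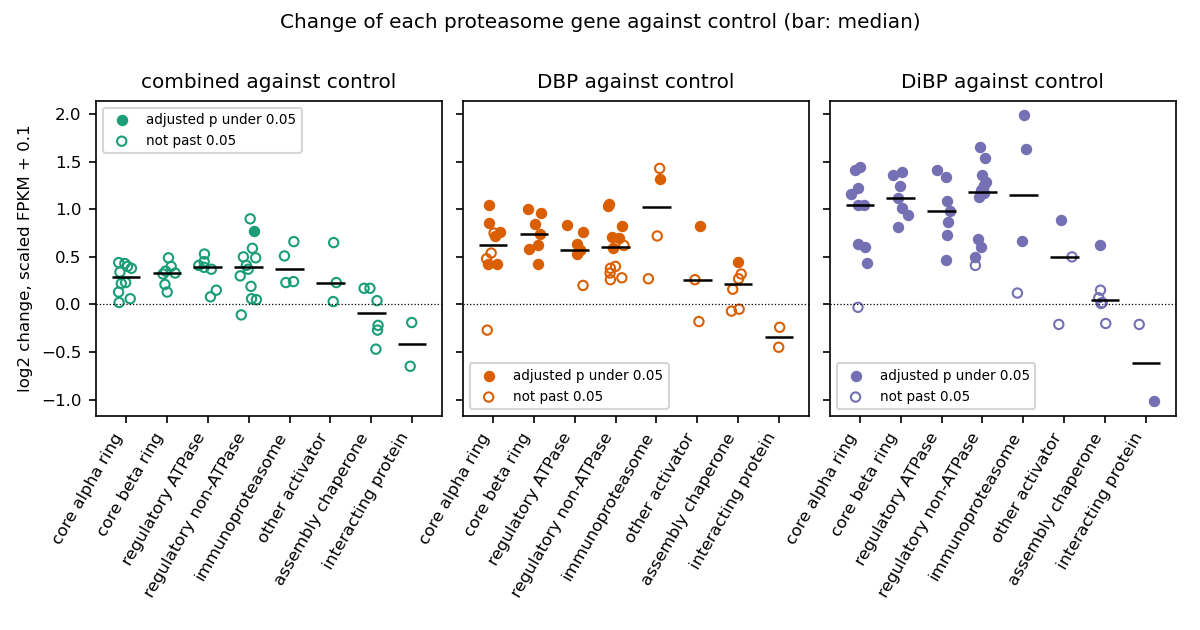
Each point is 1 tested proteasome gene, placed by role on the horizontal axis and by its log2 change against control on the vertical axis, in a panel each for combined, DBP and DiBP larvae, with filled points for adjusted p under 0.05 (that of psmb12 is a description only). Constitutive medians were 0.36 in combined, 0.62 in DBP and 1.1 in DiBP larvae, and chaperone medians were -0.09, 0.21 and 0.04 in the same order of groups.

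In DBP larvae many of the constitutive genes also rose, by smaller amounts. Of 36 constitutive genes 25 rose and 0 fell, with a median of 0.62 (a median fold of 1.54). Over all 51 members 28 rose and 0 fell with a median of 0.57, where 9.61% of all genes tested rose, 5.52% fell and the median was -0.01. The beta ring rose in 7 of 7 genes, the ATPases in 6 of 7, the alpha ring in 6 of 10 and the non-ATPases in 6 of 12. By p the leading genes were PSMC4 at 0.76 ± 0.12 (adjusted p = 0.0017), PSMD14 at 1.06 ± 0.18 (adjusted p = 0.00278) and PSMA5 at 1.05 ± 0.19 (adjusted p = 0.00477). PSMA3 rose by 0.86 ± 0.17 (adjusted p = 0.00579) and PSMD3 by 0.71 ± 0.14 (adjusted p = 0.00627). The cutting subunit genes rose by 1.0 ± 0.27 (adjusted p = 0.0294) for PSMB7, 0.74 ± 0.19 (adjusted p = 0.0246) for PSMB6 and 0.58 ± 0.15 (adjusted p = 0.0215) for PSMB5. Of the other members, PSME4 ENSDARG00000087911 rose by 0.82 ± 0.20 (adjusted p = 0.0165) and PSMG2 by 0.45 ± 0.11 (adjusted p = 0.0182). Among the 11 constitutive genes that did not pass, changes ran from -0.27 (psma6l) to 0.75 (PSMA6 ENSDARG00000013966), and PSMD12 had 0.38 ± 0.15 (adjusted p = 0.097).

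The size of this DBP count rested on single libraries. With control library 2 as the only control the members' median was 0.37, and fewer members and fewer of all genes passed. Without DBP library 1, 2 or 3 the count of members called was 18, 15 and 16. These fits hold fewer DBP libraries, and the share of all genes called in them is not given here. With control library 1 as the only control the members' median was 0.68, and more members and more of all genes passed. Leaving out combined library 3 as well as control library 1 gave a median of 0.37. More members and more of all genes passed in that fit too. Without control library 1 the change of PSMA5 was 0.65 and that of PSMA3 was 0.54, and both still passed.

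In combined larvae 1 of 51 members rose against control and 0 fell, where 1.76% of all genes tested rose and 1.69% fell. At an unadjusted limma p under 0.05, 18 were higher and 2 lower. The share of all genes at that cut is not given here, so these counts cannot be set against the shares above. The gene that passed was the lid gene PSMD12, at 0.77 ± 0.15 (adjusted p = 0.0173), and its p was 0.0613 without control library 1 and 0.0575 without combined library 1. The median was 0.27 over the 50 members other than psmb12 and 0.36 over the constitutive genes, of which 35 of 36 had a change above 0, and the largest changes that did not pass among the non-ATPases were 0.90 ± 0.23 (adjusted p = 0.0557) for PSMD11 ENSDARG00000005134, 0.59 ± 0.18 (adjusted p = 0.089) for PSMD14 and 0.50 ± 0.14 (adjusted p = 0.0719) for PSMD8. This comparison turned on which control library was kept. With psmb12 counted, the members' median was 0.3 when both controls were in the fit. It was 0.07 against control library 2 alone and 0.53 against control library 1 alone. In the latter fit more members passed, and so did more of all genes. The 3 comparisons with control share the same 2 control libraries.

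DBP and DiBP larvae were also compared directly, as offspring of parents given the isomer with straight and the isomer with branched side chains. Whether the doses matched is not given, so the comparison is between the groups as labelled. In DBP larvae 10 members were lower than in DiBP larvae and 0 were higher, where 6.15% of all genes tested were lower and 6.14% higher. The median difference was -0.34 over all members and -0.38 over the constitutive genes, of which 36 of 36 had a difference below 0. The leading genes were PSMD1 at -0.77 ± 0.12 (adjusted p = 0.00165), PSMD12 at -0.87 ± 0.13 (adjusted p = 0.00166) and PSMC4 at -0.58 ± 0.10 (adjusted p = 0.00458). PSME3 followed at -0.63 ± 0.12 (adjusted p = 0.0069) and PSMC6 at -0.52 ± 0.10 (adjusted p = 0.00774). The other 5 that passed were PSMD8, PSMA4, PSMD3, PSMB2 and PSMD6. For members that did not pass, the interval bounds what the data allow: the 95% interval of the difference was -0.92 to 0.14 for PSMB7, -0.38 to 0.07 for PSMC5 and -0.21 to 0.18 for psma2a.

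The isomer count moved with the libraries in the fit. The median difference stayed at -0.34 without control library 1 or 2, while more members and more of all genes passed. The count was 19 without combined library 3, where 8.57% of all genes tested were lower and 8.38% higher. Without DBP library 1, 2 or 3 it was 6, 5 and 6, and without DiBP library 1 or 3 it was 6 and 5. The share of all genes called in these smaller fits is not given here.

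The combined exposure was set against each single exposure. In combined larvae 35 of 51 members were lower than in DiBP larvae and 0 were higher, where 12.9% of all genes tested were lower and 11.1% higher. The median difference was -0.61, and -0.71 over the constitutive genes, of which 31 of 36 were lower: 8 of 10 in the alpha ring, 7 of 7 in the beta ring, 7 of 7 ATPases and 9 of 12 non-ATPases. PSMC4 led at -0.93 ± 0.10 (adjusted p = 7.82e-05), followed by PSMD1 at -0.87 ± 0.12 (adjusted p = 0.00024) and PSMA4 at -1.04 ± 0.16 (adjusted p = 0.000737). PSMD8 was at -0.79 ± 0.13 (adjusted p = 0.00084) and the weakly expressed PSMD7 at -1.14 ± 0.18 (adjusted p = 0.000883). The chaperone genes PSMG2 and PSMD9 and the cap gene PSME3 were lower too, at -0.45 ± 0.10 (adjusted p = 0.00574), -0.48 ± 0.12 (adjusted p = 0.0128) and -0.66 ± 0.12 (adjusted p = 0.00227). This count stayed between 28 and 39 when each library was left out in turn.

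Against DBP larvae, 8 members were lower in combined larvae and 0 were higher, where 11% of all genes tested were lower and 9.14% higher, so the share of members was near that of all genes. The median difference was -0.30. The leading genes were PSMC5 at -0.42 ± 0.10 (adjusted p = 0.0133), psma2a at -0.36 ± 0.09 (adjusted p = 0.0139) and PSMD9 at -0.42 ± 0.12 (adjusted p = 0.0284). PSMA5 at -0.60 ± 0.17 (adjusted p = 0.0287) and PSMC4 at -0.35 ± 0.10 (adjusted p = 0.0352) came next, and PSMA3, PSMB3 and PSMD7 were the remaining 3. PSMD12 had a difference of 0.38 ± 0.13 (adjusted p = 0.0587), the other way. The median stayed at -0.30 without control library 1 or 2, while more members and more of all genes passed. Without combined library 3, 22 members were lower and 1 higher, where 11.7% of all genes tested were lower and 10.1% higher. The count of lower members was 2, 0 and 1 without DBP library 1, 2 or 3. It was 2 and 0 without combined library 1 or 2, and 4, 5 and 5 without DiBP library 1, 2 or 3. The share of all genes called in these smaller fits is not given here. With the FPKM as deposited 2 members were called, both higher.

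The interaction compares the groups as labelled, since no doses are given. It asks whether the combined larvae differ from what the single exposures would give if their log2 changes added up (combined minus DBP minus DiBP plus control). It was below 0 and past the threshold in 38 of the 50 members other than psmb12 and above 0 in 1, where 18.6% of all genes tested were below and 15.5% above. The median was -1.13, and -1.35 over the constitutive genes, of which 35 of 36 passed: 9 of 10 in the alpha ring, 7 of 7 in the beta ring, 7 of 7 ATPases and 12 of 12 non-ATPases. The largest by p were PSMC4 at -1.69 ± 0.16 (adjusted p = 1.77e-05), PSMD14 at -2.02 ± 0.24 (adjusted p = 8.78e-05) and PSMD1 at -1.46 ± 0.17 (adjusted p = 9.26e-05). PSMD8 had -1.49 ± 0.19 (adjusted p = 0.000131) and PSMD3 -1.47 ± 0.19 (adjusted p = 0.000136). For PSMC4 the group means behind this value were 33.3 ± 1.63 in combined, 42.4 ± 0.714 in DBP and 63.6 ± 4.65 in DiBP larvae (SD, n = 3 each) against 25.2 ± 5.06 in control larvae (n = 2). The positive member was PSME4 ENSDARG00000018742, at 0.41 ± 0.15 (adjusted p = 0.0457). This call was lost without control library 1, without any single DBP or DiBP library and without combined library 1 or 2. It was also lost with no filter and with the replicate number as a block. With each library left out in turn the number of members called, psmb12 counted, was 36 to 40, and without both libraries that stood apart 41 members were below 0 and 1 above.

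Immunoproteasome genes rested on few reads. The cap genes were the most abundant: PSME1 (ENSDARG00000002165), counted in 14 to 108 reads per library, had 2.60, 2.26 and 2.06 in combined larvae, 3.51, 3.65 and 3.87 in DBP larvae, 6.58, 5.08 and 6.26 in DiBP larvae and 0.802 and 2.45 in control larvae. PSME2 (ENSDARG00000033144), its partner, had 0.932, 1.18 and 1.33 in combined larvae, 1.06, 1.07 and 1.38 in DBP larvae, 1.47, 1.65 and 1.59 in DiBP larvae and 1.02 and 0.880 in control larvae from 23 to 44 reads. Every DiBP library exceeded all others for both genes, and control library 1 was far below control library 2 for PSME1. PSMB10 (ENSDARG00000043781), the inducible copy of the trypsin-like subunit, had 1.97, 1.87 and 1.92 in combined larvae, 2.79, 3.31 and 2.21 in DBP larvae, 1.45, 1.99 and 1.92 in DiBP larvae and 2.12 and 1.23 in control larvae from 40 to 92 reads. Here the DBP libraries, not the DiBP libraries, were highest, and DBP and DiBP libraries did not overlap. The catalytic gene psmb12 (ENSDARG00000031885) had 0.379, 0.144 and 0.237 in combined larvae, 0.798, 0.263 and 0.718 in DBP larvae, 0.8998, 0.881 and 0.311 in DiBP larvae and 0.0770 and 0.224 in control larvae from 1 to 12 reads, with libraries of the same group far apart.

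The untested catalytic copies were fewer still. PSMB8, the inducible copy of the chymotrypsin-like subunit, had 0 to 7 reads per library, PSMB9, the inducible copy of the caspase-like subunit, 0 to 4, psmb13a 0 to 4, and the thymic PSMB11 0 to 1. At this depth no difference between groups was detectable in these 4 genes. Together the 6 immunoproteasome and thymic catalytic copies made up 1.62%, 1.51% and 1.23% of the summed scaled FPKM of catalytic beta genes in combined larvae, 1.77%, 1.75% and 1.57% in DBP larvae, 0.883%, 1.16% and 0.967% in DiBP larvae and 2.48% and 1.0% in control larvae. The share was lowest in the DiBP group, where the constitutive copies were highest, and the 2 controls lay further apart than any of the exposed libraries did. The summed level of 8 lymphocyte and thymus marker genes was 1.62 to 2.75 over all libraries.

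Tested 1 by 1, PSME1 rose in DiBP larvae by 1.99 ± 0.33 (adjusted p = 0.00124), the largest change of any member there, and the change was 1.24 and still passed without control library 1. PSME2 had 0.67 ± 0.23 (adjusted p = 0.0425), a call that was lost under 13 of 20 alternatives (adjusted p = 0.0523 to 0.127). Among these were the fits without control library 1 or 2 (0.0831 and 0.127), without any single DiBP library (0.0695 to 0.104), without DBP library 1 or 2, without combined library 2 and with voom. PSMB10 had 0.12 ± 0.24 (adjusted p = 0.732) in DiBP larvae. In DBP larvae PSME1 rose by 1.32 ± 0.33 (adjusted p = 0.0212), a change of 0.57 with an adjusted p of 0.148 without control library 1 and of 2.06 without control library 2. It did not pass without any single DBP library (adjusted p = 0.0517 to 0.0643). PSMB10 had 0.72 ± 0.24 (adjusted p = 0.0661) there, and 1.09 with an adjusted p of 0.017 without control library 1. PSME2 had 0.27 ± 0.23 (adjusted p = 0.456) in DBP larvae.

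In combined larvae against control, PSME1 had 0.66 ± 0.33 (adjusted p = 0.292), PSME2 0.24 ± 0.23 (adjusted p = 0.593) and PSMB10 0.23 ± 0.24 (adjusted p = 0.633). None of the 3 passed. The change of PSME1 was 1.41 without control library 2, a fit with a single control library. Between the isomers, PSME1 was at -0.68 ± 0.30 (adjusted p = 0.158) with a 95% interval of -1.33 to -0.03, and PSMB10 at 0.60 ± 0.22 (adjusted p = 0.0923) with an interval of 0.13 to 1.08, in opposite directions. These differences stayed at -0.68 and 0.60 without control library 1 or 2, where both passed and more of all genes did as well. PSME2 had -0.40 ± 0.20 (adjusted p = 0.218).

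In combined larvae PSME1 differed from DiBP larvae by -1.33 ± 0.30 (adjusted p = 0.00676) on the log2 scale, while PSME2 had -0.43 ± 0.20 (adjusted p = 0.147) and PSMB10 0.11 ± 0.22 (adjusted p = 0.763). Against DBP larvae the same genes had -0.66 ± 0.30 (adjusted p = 0.141) for PSME1, -0.03 ± 0.20 (adjusted p = 0.935) for PSME2 and -0.49 ± 0.22 (adjusted p = 0.134) for PSMB10. PSME1 passed there without either control library (adjusted p = 0.00945). The interaction passed for PSME1 at -2.65 ± 0.45 (adjusted p = 0.000894). It did not pass for PSME2 at -0.70 ± 0.30 (adjusted p = 0.0963) or PSMB10 at -0.61 ± 0.33 (adjusted p = 0.171), the second of which had -0.98 with an adjusted p of 0.0301 without control library 1.

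**Figure D4:**
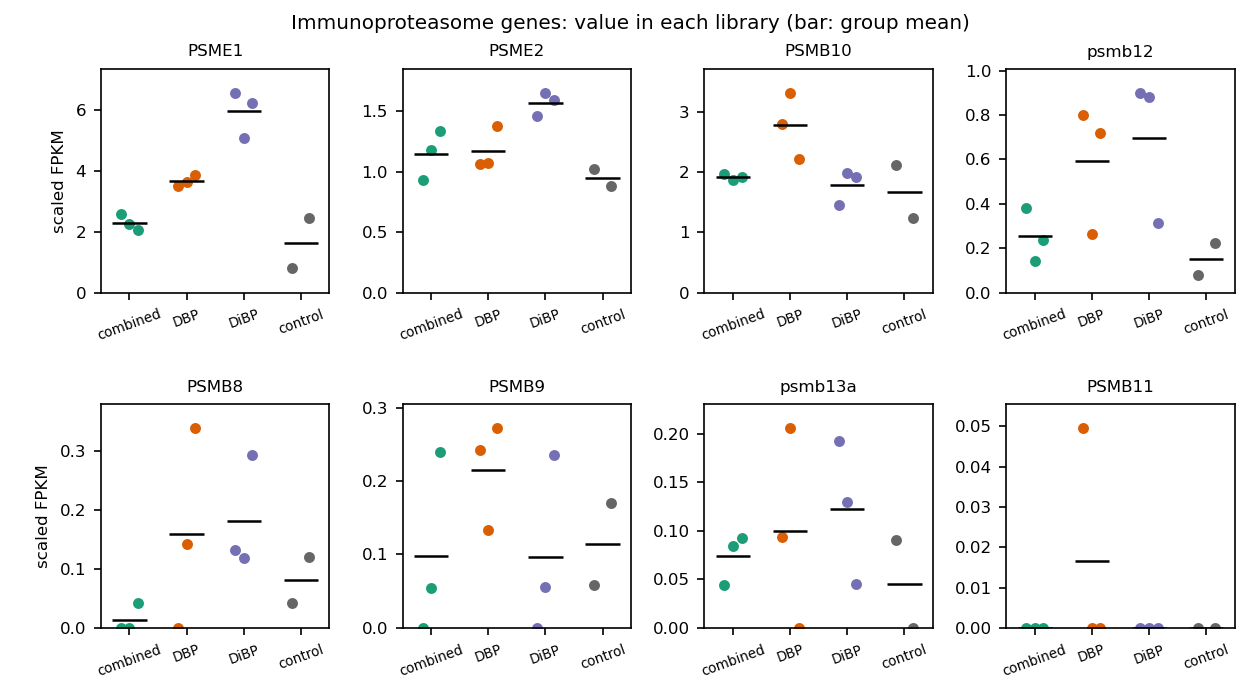
Scaled FPKM of the 8 immunoproteasome and thymic genes in every library, with 1 point per library and a bar at the group mean, and a separate vertical scale in each panel. PSME1 is highest in the 3 DiBP libraries at 5.08 to 6.58, PSMB10 in the 3 DBP libraries at 2.21 to 3.31, and PSMB8, PSMB9, psmb13a and PSMB11 stay at 0.338 or below.

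Zebrafish carry paralogues of several subunits, and the ratio of their levels was taken in every library. The ratio of psmc1b to PSMC1, both copies of 1 ATPase, was 2.59, 2.78 and 3.44 in combined larvae, 3.41, 3.02 and 3.45 in DBP larvae, 3.92, 4.31 and 4.0 in DiBP larvae and 1.42 and 3.19 in control larvae. The DiBP ratios lay above all others, and control library 1 stood out at the low end. The ratio of PSMD11 ENSDARG00000060150 to PSMD11 ENSDARG00000005134 was 1.78, 1.61 and 1.67 in combined larvae, 1.51, 1.49 and 1.48 in DBP larvae, 1.25, 1.26 and 1.23 in DiBP larvae and 3.30 and 1.86 in control larvae. Here the DiBP ratios were lowest and no group overlapped with another. For PSME4 the ratio of ENSDARG00000087911 to ENSDARG00000018742 averaged 1.91 in combined, 2.48 in DBP, 2.03 in DiBP and 1.33 in control larvae. Those of psma2a to PSMA2 (1.81, 2.01, 1.76 and 2.02 in the same order), of psmd4b to PSMD4 (10.6, 7.57, 8.89 and 8.68) and of the PSMA6 genes (1.59, 1.60, 1.38 and 1.39) completed the 6 pairs.

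Each ratio was tested by a two-sided exact permutation test between DBP and DiBP larvae, coded as DiBP minus DBP, and between DiBP and control larvae. With 3 against 3 libraries the smallest p this test allows is 0.1, which was reached between the isomers for the pairs of psmc1b, PSMD11 and PSME4, while the other 3 pairs gave 0.2. With 3 against 2 libraries the smallest p it allows is 0.2, which was reached for the pairs of psmc1b, psma2a, PSMD11 and PSME4 but not of psmd4b and PSMA6. No test could therefore pass 0.05, and how the authors' counting split reads between near-identical copies is not stated in these sources.

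Genes that work with the proteasome were counted in the same fit. Of 33 names in the list of proteasome partners, 26 were in the files and tested. In DiBP larvae 13 of 26 rose against control and 2 fell, with a median of 0.39, where 15.8% of all genes rose. In DBP larvae 7 rose and 1 fell with a median of 0.19, where 9.61% rose, and in combined larvae 0 rose and 0 fell with a median of 0.07. Between the isomers 0 were higher in DBP larvae and 6 lower (23.1%, where 6.15% of all genes were lower). Combined larvae had 0 higher and 13 lower than DiBP larvae (where 12.9% of all genes were lower), and 1 higher and 5 lower than DBP larvae (3.85% and 19.2%, against 9.14% and 11% of all genes). In the interaction 14 were below 0 and 2 above (53.8% and 7.69%, against 18.6% and 15.5% of all genes).

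The 15 calls for DiBP larvae against control were 10 without DiBP library 1 and 11 without DiBP library 3 or control library 1, and the 16 in the interaction were 12 to 17 with each library left out in turn. In DBP larvae the 8 calls were 5 without control library 1, 4, 4 and 5 without DBP library 1, 2 or 3, and 5 without any single DiBP library or combined library 1. In combined larvae 3 were higher and 3 lower at an unadjusted limma p under 0.05, a cut whose share over all genes is not given here, and voom called 0. Without control library 2 some partners were called there, and more of all genes were as well. The isomer count of 6 was 10 without either control library and 3 without DBP library 1, DiBP library 1 or DiBP library 3. The 13 calls against DiBP larvae were 7 and 8 without DiBP library 1 or 3 and 8 without combined library 1, and the 6 against DBP larvae were 3 without any single DBP library.

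TXNL1 (ENSDARG00000011921), a thioredoxin-like protein bound to the regulatory particle in mammals, had 12.5, 12.5 and 16.2 in combined larvae, 38.9, 40.3 and 45.0 in DBP larvae, 39.8, 34.8 and 41.0 in DiBP larvae and 10.7 and 15.2 in control larvae. It was high in both single exposures and overlapped with control in the combined one. Its changes were 1.69 ± 0.16 (adjusted p = 9.19e-05) in DBP and 1.58 ± 0.16 (adjusted p = 5.19e-05) in DiBP larvae, and its interaction was -3.18 ± 0.21 (adjusted p = 1.57e-06). RAD23B (ENSDARG00000021550), a shuttle that brings ubiquitinated proteins to the proteasome, had 33.4, 33.3 and 38.1 in combined larvae, 40.3, 39.5 and 42.8 in DBP larvae, 53.6, 49.7 and 51.4 in DiBP larvae and 27.0 and 28.9 in control larvae. Its 4 groups did not overlap, in the order of the constitutive subunits, and it rose by 0.55 ± 0.09 (adjusted p = 0.00303) in DBP and 0.88 ± 0.09 (adjusted p = 7.84e-05) in DiBP larvae. USP14 (ENSDARG00000025889), a deubiquitinating enzyme of the regulatory particle, had 16.4, 14.8 and 17.6 in combined larvae, 19.5, 18.8 and 17.6 in DBP larvae, 28.5, 25.6 and 29.8 in DiBP larvae and 11.9 and 15.9 in control larvae, and rose by 1.01 ± 0.13 (adjusted p = 0.000242) in DiBP larvae.

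The small lid subunit gene SEM1 (ENSDARG00000027899) and the ubiquitin receptor gene ADRM1 (ENSDARG00000058560) lack a psm symbol but encode parts of the regulatory particle. SEM1 had 53.9, 47.1 and 61.0 in combined larvae, 65.8, 70.8 and 69.4 in DBP larvae, 83.2, 73.5 and 81.6 in DiBP larvae and 48.7 and 48.7 in control larvae. ADRM1 had 22.3, 21.8 and 31.0 in combined larvae, 29.1, 32.7 and 27.1 in DBP larvae, 42.3, 36.4 and 37.8 in DiBP larvae and 14.2 and 19.6 in control larvae. Both were highest in the DiBP libraries, while combined and control libraries overlapped for SEM1 and not for ADRM1. They rose in DBP larvae by 0.49 ± 0.11 (adjusted p = 0.0115) for SEM1 and 0.82 ± 0.17 (adjusted p = 0.00786) for ADRM1. NSFL1C and NPLOC4, cofactors of the unfoldase VCP, were lower in DBP than in DiBP larvae, at -0.59 ± 0.10 (adjusted p = 0.00242) and -0.92 ± 0.14 (adjusted p = 0.00171). POMP (ENSDARG00000032296), the maturation factor of the beta ring, and NFE2L1 (ENSDARG00000030616) were chosen after their values were seen. POMP rose in DiBP larvae by 0.94 ± 0.19 (adjusted p = 0.00332). NFE2L1 had 1.66, 1.68 and 1.27 in combined larvae, 2.47, 3.08 and 3.91 in DBP larvae, 3.5, 3.59 and 5.25 in DiBP larvae and 0.488 and 2.41 in control larvae, with a DiBP change of 1.77 ± 0.45 (adjusted p = 0.0113) that was 0.72 and did not pass without control library 1 (adjusted p = 0.0889) and was 2.82 without control library 2. Its paralogue nfe2l1b (ENSDARG00000076533) had 2.19, 2.31 and 1.76 in combined larvae, 2.66, 3.23 and 3.26 in DBP larvae, 2.78, 2.63 and 2.90 in DiBP larvae and 2.31 and 3.22 in control larvae, with DiBP and control libraries overlapping and a change of 0.02 ± 0.16 (adjusted p = 0.936). Among the other called partners, ECPAS, a proteasome adaptor and scaffold, was 0.44 ± 0.11 (adjusted p = 0.0131) in combined against DBP larvae and -0.44 ± 0.11 (adjusted p = 0.0188) in DBP against DiBP larvae. The zinc finger genes ZFAND2B and zfand5b were lower in combined than in DBP larvae, at -0.56 ± 0.11 (adjusted p = 0.00431) and -0.42 ± 0.12 (adjusted p = 0.0231). ECPAS no longer passed without DBP library 1 in either comparison (adjusted p = 0.0624 and 0.0909) or, between the isomers, without any single DiBP library (0.0602 to 0.0734). The call of zfand5b was lost without any single DBP library or combined library 1 or 2 (adjusted p = 0.0524 to 0.0779).

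**Figure D5:**
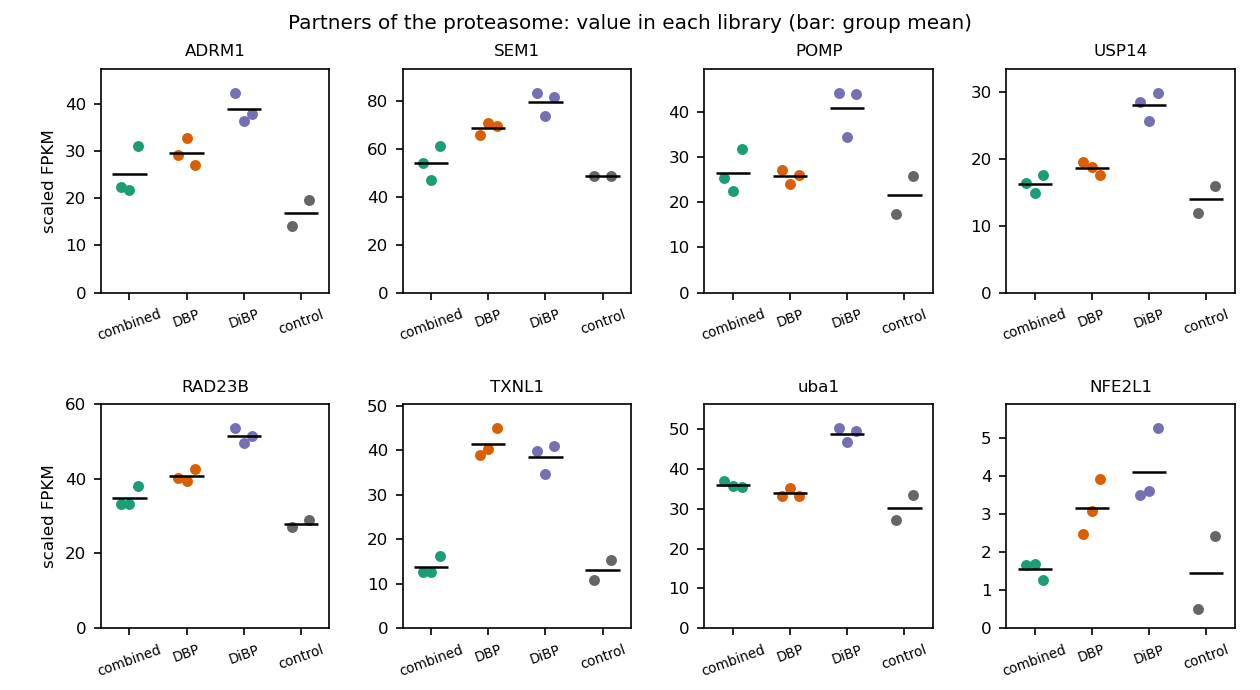
Scaled FPKM in every library of 8 genes that work with the proteasome, with 1 point per library, a bar at the group mean and a separate vertical scale in each panel. SEM1, ADRM1, POMP, USP14 and RAD23B are highest in the 3 DiBP libraries, whereas TXNL1 is high in DBP (38.9 to 45.0) and DiBP larvae (34.8 to 41.0) and low in combined (12.5 to 16.2) and control larvae (10.7 and 15.2).

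Against control, ubiquitin genes and ligases were called at shares close to those of all genes. Of 45 tested, 8 rose and 5 fell in DiBP larvae with a median of 0.09, and 6 rose and 3 fell in DBP larvae with a median of 0.03. In combined larvae 0 rose and 0 fell, and voom called 0. At an unadjusted limma p under 0.05, 14 were higher and 1 lower there, a cut whose share over all genes is not given here. The calls in DiBP larvae are 17.8% higher and 11.1% lower, against 15.8% and 14.0% of all genes. In DBP larvae they are 13.3% and 6.67%, against 9.61% and 5.52%. The counts of all 3 groups rose without control library 2, as did those of all genes, and without DBP library 2 the DBP count was 5 and 0. Of the polyubiquitin genes, ubc had the most reads, 7336 to 12800 per library, and was not called in DBP larvae against control or DiBP larvae. UBB and ubb were high in DBP larvae. UBB (ENSDARG00000002369) had 78.8, 75.7 and 89.6 in combined larvae, 115, 121 and 119 in DBP larvae, 76.2, 62.8 and 75.1 in DiBP larvae and 68.8 and 65.2 in control larvae, and ubb (ENSDARG00000093313) had 74.9, 74.9 and 86.5 in combined larvae, 114, 114 and 112 in DBP larvae, 69.6, 58.2 and 57.9 in DiBP larvae and 66.7 and 70.8 in control larvae. Every DBP library lay above all others for both genes, which rose against control by 0.82 ± 0.11 (adjusted p = 0.000685) and 0.72 ± 0.11 (adjusted p = 0.00133) and exceeded DiBP larvae by 0.73 ± 0.10 (adjusted p = 0.00072) and 0.88 ± 0.09 (adjusted p = 0.000198). The gene of the ubiquitin-activating enzyme, uba1 (ENSDARG00000037559), had 36.9, 35.7 and 35.5 in combined larvae, 33.2, 35.2 and 33.3 in DBP larvae, 50.3, 46.9 and 49.5 in DiBP larvae and 27.1 and 33.4 in control larvae and rose in DiBP larvae by 0.70 ± 0.10 (adjusted p = 0.000449). FBXO32 (ENSDARG00000040277), a ligase subunit known from muscle wasting, had 29.5, 27.9 and 32.8 in combined larvae, 62.6, 63.9 and 71.3 in DBP larvae, 67.5, 61.8 and 67.1 in DiBP larvae and 13.7 and 34.9 in control larvae, with an interaction of -2.71 ± 0.36 (adjusted p = 0.000176). UBE2C (ENSDARG00000114670), a conjugating enzyme of mitosis, went the other way at -1.47 ± 0.21 (adjusted p = 0.000494) in DiBP larvae, where the summed level of dividing-cell markers was 158.0 to 166.2 against 274.5 and 377.9 in control larvae. MCM7 was the largest part of that sum, and the marker MCM2 was higher in DiBP than in control larvae.

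The ligase gene ube3a rose by 0.39 ± 0.09 (adjusted p = 0.0115) in DBP and 0.67 ± 0.09 (adjusted p = 0.000266) in DiBP larvae, with an interaction of -0.77 ± 0.12 (adjusted p = 0.000473). CUL4A, a cullin scaffold of ligases, was 0.77 ± 0.12 (adjusted p = 0.000991) in combined against DBP larvae and -0.65 ± 0.12 (adjusted p = 0.00426) in DBP against DiBP larvae. The ligase gene UBR2 was higher in combined larvae by 0.58 ± 0.10 (adjusted p = 0.00175) against DBP and 0.52 ± 0.10 (adjusted p = 0.00212) against DiBP larvae, with an interaction of 0.80 ± 0.14 (adjusted p = 0.00132), and the conjugating enzyme gene UBE2G1 was higher in combined than in DiBP larvae by 0.56 ± 0.09 (adjusted p = 0.00103).

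Antigen presentation and interferon genes form the setting in which immunoproteasome copies are known to act. Of 28 tested (43 of 54 names were in the files), 7 rose and 4 fell in DiBP larvae, 2 rose and 1 fell in DBP larvae and 1 rose and 2 fell in combined larvae, with medians of -0.02, 0.10 and -0.07. The shares higher and lower were 25.0% and 14.3% in DiBP larvae (15.8% and 14.0% of all genes), 7.14% and 3.57% in DBP larvae (9.61% and 5.52%) and 3.57% and 7.14% in combined larvae (1.76% and 1.69%). These counts and shares include RSAD2, mhc1uba and mhc2dab, which passed the filter only through 1 group in which they are high (DiBP, DBP and combined larvae in this order). Their levels are therefore given with no test, and the shares are not read as a result about the list. Without control library 1 the counts were 5 and 1 in DiBP and 1 and 0 in DBP larvae. Without control library 2 they were 6 and 3 in DBP and 2 and 3 in combined larvae. The DBP count was 4 and 1 without combined library 3, and the combined count 1 and 0 without any single DBP or DiBP library and without combined library 1 or 2. The interferon-induced gene RSAD2 (ENSDARG00000004952) had 0.245, 0.272 and 0 in combined larvae, 0.215, 0.141 and 0.579 in DBP larvae, 1.76, 1.5 and 1.47 in DiBP larvae and 0.0828 and 0.121 in control larvae. SOCS1 (ENSDARG00000038095), a feedback inhibitor of cytokine signalling, had 19.3, 16.3 and 18.1 in combined larvae, 30.4, 32.7 and 27.5 in DBP larvae, 40.7, 39.5 and 39.2 in DiBP larvae and 24.4 and 23.6 in control larvae, and its interaction was -1.48 ± 0.14 (adjusted p = 2.19e-05). The ubiquitin-like gene isg15 (ENSDARG00000086374) had 0.523, 0.552 and 0.967 in combined larvae, 0.367, 1.0 and 0.618 in DBP larvae, 3.63, 2.36 and 2.92 in DiBP larvae and 0.412 and 1.14 in control larvae and differed between DBP and DiBP larvae by -2.08 ± 0.40 (adjusted p = 0.00642) on the log2 scale. Levels of isg15 were thus highest in DiBP libraries, as those of PSME1 and PSME2 were, at a few FPKM or less. RSAD2 is not set beside them, as it passed the filter only through DiBP larvae.

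Other genes of the list differed in other directions. The interferon-induced gene mxc rose by 2.33 ± 0.38 (adjusted p = 0.00822) in combined and 2.12 ± 0.38 (adjusted p = 0.00191) in DiBP larvae, and was 1.60 ± 0.34 (adjusted p = 0.0073) in combined against DBP larvae. Among class I heavy chain genes, whose copies may share reads, mhc1uba had 0.13, 0.0741 and 0.108 in combined larvae, 0.437, 0.419 and 0.553 in DBP larvae, 0, 0 and 0 in DiBP larvae and 0.079 and 0.0767 in control larvae, highest in the DBP libraries. In DBP larvae mhc1zca rose by 1.5 ± 0.42 (adjusted p = 0.0318), while mhc1zea fell, at -1.12 ± 0.24 (adjusted p = 0.00969). For mhc1lia the difference was -2.67 ± 0.41 (adjusted p = 0.000614) in combined against DiBP larvae and the interaction -3.77 ± 0.61 (adjusted p = 0.000697). The class II gene mhc2dab had 0.742, 0.53 and 0.725 in combined larvae, 0.293, 0.161 and 0.384 in DBP larvae, 0, 0.0449 and 0.0952 in DiBP larvae and 0.706 and 0.411 in control larvae, lowest in the DiBP libraries. The gene of the class I light chain, b2m, fell in combined larvae, at -0.86 ± 0.21 (adjusted p = 0.0436), and PDIA3, a chaperone of class I loading, was -0.36 ± 0.08 (adjusted p = 0.00929) in combined against DBP larvae. Without control library 1 the changes of mhc1zea, mhc1zca and b2m were -0.97, 0.55 and -0.65 and no longer passed (adjusted p = 0.0548, 0.249 and 0.168). That of mhc1zca was 2.45 without control library 2, and did not pass without any single DBP library (adjusted p = 0.0577 to 0.0963). That of b2m passed neither without any single DBP or DiBP library nor without combined library 1 or 2 (adjusted p = 0.0601 to 0.124).

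In the RefSeq table of zebrafish genes (assembly GRCz12tu, used for names and order only), psmb13a, psmb8a, psmb12 and psmb9a are consecutive entries, and so are psmb11a and psmb5. The 4 neighbours of the first cluster were all near the limit of detection here, whereas psmb5 was abundant beside psmb11a, which had 0 to 1 reads. No sequence of a member is shown, as the sources used here hold none.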

How the data were processed

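Paired reads of 150 bases came from an Illumina platform, per the labels' protocols. The deposited values are FPKM per gene as computed by the authors. The submitters' processing notes name HISAT2 2.1.0, HTSeq 0.6.0 and the build GRCz10. No annotation release or strand setting is stated there, and reads of overlapping, antisense or near-identical genes cannot be told apart.

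The whole reads behind the FPKM were recovered (100.0% of genes, tolerance 1e-06 reads beyond rounding) for the low-value filter, the TMM factors (0.935 to 1.101) and the voom alternative. The recovery and the fit were tested on simulated data. The filter kept genes that reached, in 2 or more libraries, the CPM equal to 10 reads, and that summed to 15 reads or more. Then limma 3.58.1 (R 4.3.3) was fitted to log2(FPKM / TMM factor + 0.1) of all 19465 genes in 1 model, with a mean per group, a variance trend, and 7 residual and 5.2 prior degrees of freedom. The p-values were adjusted by Benjamini and Hochberg over all genes tested in each of 7 comparisons, with a threshold of 0.05.

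The members, their roles and the related lists were chosen with earlier results of these data known. Values in every library with fold changes are given for up to 5 members of smallest p whose groups do not overlap, and for every tested immunoproteasome gene except psmb12, whose levels alone are given. In each related list the up to 4 called genes of smallest p in each comparison are named, except 1 gene that is not reported here. Alternatives were relative log expression scaling, unscaled FPKM, pseudocounts of 0.01 and 1, all genes unfiltered, genes with a mean CPM from 5 upwards, voom, a fit of the compared groups alone, the replicate number as a block, and fits without each library or without control library 1 and combined library 3 together. For genes of the related lists and for POMP, NFE2L1 and nfe2l1b these alternatives were added after seeing the data.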

Additional observations from a re-analysis of the deposited data

Results flagged for a closer look

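The interaction between the exposures passed the threshold in 39 proteasome genes, 38 of them below 0. In these genes the log2 changes of the single-exposure groups did not add up to that of the combined group. Doses are not given, so this holds for the groups as labelled. By limma on the log2(scaled FPKM + 0.1) scale the interaction was -1.69 for PSMC4, -2.02 for PSMD14, -1.46 for PSMD1, -1.49 for PSMD8 and -1.47 for PSMD3, all constitutive subunit genes of the regulatory particle. It was -2.65 for PSME1, of the immunoproteasome group. The gene psmb12 is left out of these counts, as it passed the filter only through 2 DiBP libraries. With it counted, 40 passed, and 36 to 40 with each library left out in turn. Groups of 2 or 3 libraries were too small for a test of single outlying samples.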

How the results depend on the processing

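The number of proteasome genes called, psmb12 counted, held within 1.5 times under every alternative run for DiBP larvae against control, for combined against DiBP larvae and for the interaction. Leaving out each library in turn gave 35 to 40, 28 to 39 and 36 to 40 calls in these comparisons. The same alternatives gave 14 to 37 calls for DBP against control, 0 to 30 for combined against control, 5 to 29 for DBP against DiBP and 0 to 24 for combined against DBP larvae. With only the groups compared in the fit, calls were 8 for DBP against control, 0 for combined against control, 35 for DBP against DiBP and 21 for combined against DBP larvae, fits that hold fewer samples. With the FPKM as deposited they were 8 for combined against control, 17 for DBP against DiBP and 2 for combined against DBP larvae. The last was 3 with no filter, and combined against control gave 2 at a mean CPM of 5 or more. Without both control library 1 and combined library 3 they were 5 for combined against control, 36 for DBP against DiBP and 38 for combined against DBP larvae. Calls over all genes shifted as well without control library 2, without both libraries that stood apart and with the FPKM as deposited. The cause of these shifts was not tested. Under the FPKM as deposited, the median over all genes shifted by 0.16 for combined against DBP larvae, 0.11 for combined against DiBP larvae and 0.23 in the interaction, and relative to all genes the members' medians were then -0.29, -0.60 and -1.16.

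With the replicate number as a block, calls were 23, 38 and 1 for DBP, DiBP and combined larvae against control, 8 for DBP against DiBP, 7 and 34 for combined against DBP and DiBP larvae, and 38 in the interaction. Libraries that share a number correlated by -0.034 to 0.136 over 15 pairs and for 6 of 11 the mean correlation was highest with libraries of the same number, so the numbers were not used as pairs. Of 59 named changes of members under 1202 settings, 1122 kept their direction and side of the threshold, 63 no longer passed, 17 newly passed and 0 changed sign while called. Of 74 named changes of the related lists under 1523 settings, 1458 kept both and 65 no longer passed. The immunoproteasome genes and PSMD12 in combined larvae were among those that changed.

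The depth of 13396589 to 15381114 reads per library left PSMB8, PSMB9, PSMB11 and psmb13a at 0 to 7 reads, too few to test. With 2 control libraries, standard errors against control exceed those between exposed groups, and those of the interaction are larger again. A planned search of promoters for the NFE2L1 motif and a comparison of protein sequences were not run.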
